A study of Mus musculus with 10 samples.

Results

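The 10 Wnt ligand genes *Wnt2*, *Wnt4*, *Wnt5a*, *Wnt5b*, *Wnt6*, *Wnt7b*, *Wnt9a*, *Wnt10a*, *Wnt10b* and *Wnt11* were chosen by name and followed through 10 RNA sequencing libraries of the mouse mammary gland. They are 10 of the 19 Wnt ligand genes among the 55487 genes counted. The libraries were made from mammary epithelial cells (MECs) and from macrophages of 10-wk-old BALB/c female mice in diestrus. Mice of both genotypes carried floxed *Cebpb* alleles (*Cebpb* fl/fl), which encode the transcription factor C/EBPβ. The mutant mice, *Cebpb*ΔM, also carried *Csf1r-iCre*, a Cre recombinase expressed in CSF1R-positive myeloid cells, and the WT mice were negative for Cre. MECs were single cells from dissociated organoids, freed of cells with other lineage markers by negative selection (WT 1 and 3, *Cebpb*ΔM 1 and 3). Macrophages were selected with antibody to F4/80 (WT 4 and 5, *Cebpb*ΔM 4 to 7). The labels name the mutant a C/EBPb knockdown. How many mice went into a library is not stated in the sources used here, so the *P*-values measure only the spread between these libraries. The libraries address which cell type holds the transcripts of each ligand, and whether the ligands differ in MECs and in macrophages when *Cebpb* is deleted in macrophages.

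Wnt ligands are secreted, lipid-modified glycoproteins that act on nearby cells. The acyltransferase Porcupine (*Porcn*) attaches the lipid and the carrier Wntless (*Wls*) brings the ligand to the cell surface, where it binds Frizzled receptors together with the LRP co-receptors, which stabilizes β-catenin, or with ROR and RYK receptors, which signal without β-catenin. In the mammary gland, *Wnt4* is induced by progesterone in hormone-sensing luminal cells and acts in ductal side branching, whereas *Wnt5a* is known as a ligand that limits ductal growth.

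Total counts were 25310926 to 27008166 in the MEC libraries and 16935000 to 20174722 in the macrophage libraries. The summed level of 12 macrophage markers was 8425 to 16320 CPM (counts scaled to the library size) in the macrophage libraries and 35.5 to 49.1 CPM in MECs. The macrophage libraries also held transcripts of other cells. The 12 pan-epithelial markers summed to 16.1 to 30.0% of their mean level in MECs, with all 12 genes above 3 counts in every macrophage library, and the 10 basal markers to 11.4 to 46.2%. As means of the macrophage libraries, single basal markers ran from 7.27% (*Krt17*) to 89.7% (*Myh11*), with *Krt14* at 12.4% and *Acta2* at 38.5%. The basal sum therefore depends on its members. The 10 fibroblast markers summed to 57.9 to 132% of the MEC level. The sums of the 6 endothelial and of the 6 pericyte markers were higher in every macrophage library than in every MEC library. The MEC libraries held fibroblast marker transcripts too, with sums of 6596 and 5436 CPM in WT 1 and 3 and 5473 and 6412 CPM in *Cebpb*ΔM 1 and 3. Single members of this list went both ways, as *Col1a1* had means of 2152 CPM in WT and 1428 CPM in *Cebpb*ΔM MECs and *Dcn* of 1300 and 2496 CPM. The part of such cells in the MEC ligand levels was not tested. *Cebpb* itself had 13 and 15 counts in the WT macrophage libraries and 16, 13, 5 and 4 counts in those labelled *Cebpb*ΔM 4 to 7, and 25, 28, 69 and 42 counts in the MEC libraries WT 1, WT 3, *Cebpb*ΔM 1 and *Cebpb*ΔM 3. At these counts the deletion was not detectable in replicates 4 and 5, so the macrophage genotypes below are those of the labels.

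The ligand genes lie on 7 chromosomes of GRCm38, with coordinates from the count tables. *Wnt6* (ENSMUSG00000033227, chromosome 1 from 74771892 to 74785322) and *Wnt10a* (ENSMUSG00000026167, chromosome 1 from 74791516 to 74804179) are neighbors on the plus strand, 6193 bp apart with no annotated gene between them. *Wnt4* (ENSMUSG00000036856) spans chromosome 4 from 137277489 to 137299726, and *Wnt5a* (ENSMUSG00000021994) chromosome 14 from 28504750 to 28527448, both on the plus strand. *Wnt2* (ENSMUSG00000010797, 17988940 to 18030585) and *Wnt5b* (ENSMUSG00000030170, 119432531 to 119544347) lie on the minus strand of chromosome 6. *Wnt7b* (ENSMUSG00000022382, 85535437 to 85582473) and *Wnt10b* (ENSMUSG00000022996, 98770712 to 98778150) lie on the minus strand of chromosome 15. *Wnt9a* (ENSMUSG00000000126) spans chromosome 11 from 59306928 to 59333552, and *Wnt11* (ENSMUSG00000015957) chromosome 7 from 98835112 to 98855195, both on the plus strand. Exons of *Wnt5a*, *Wnt7b* and *Wnt11* share 358, 324 and 364 nt with the genes *Gm2670*, *AU022754* and *Gm8398* on the opposite strand. Genes lying inside exons of another gene on the opposite strand had a median count per kb of 1.47 to 1.78 times that of the gene around them in every library. Counts in these stretches may therefore hold reads from both strands, which this ratio alone cannot decide.

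Promoter windows, from 250 bases before to 50 bases after the start site, were found in the RefSeq table (GRCm38.p6) for 7 of the 10 ligands. The windows of *Wnt4*, *Wnt6* and *Wnt10b* are printed because *Wnt4* and *Wnt10b* had the smallest *P* for a genotype difference that depends on the cell type and *Wnt6* the largest fold between the MEC genotypes among the 9 ligands that passed the filter on low counts, and they were chosen after these values were seen. They are written 5′ to 3′ on the strand of the gene, with the 50 bases from the RefSeq start site on in capitals. This start site is the gene's first base in the count tables for *Wnt6* and *Wnt10b*, but not for *Wnt4*. The count tables begin *Wnt4* at 137277489, so its lower-case bases from there on lie inside the gene as counted. *Wnt4* is at chr4:137277385-137277684, *Wnt6* at chr1:74771642-74771941 and *Wnt10b* at chr15:98778101-98778400.
Wnt4: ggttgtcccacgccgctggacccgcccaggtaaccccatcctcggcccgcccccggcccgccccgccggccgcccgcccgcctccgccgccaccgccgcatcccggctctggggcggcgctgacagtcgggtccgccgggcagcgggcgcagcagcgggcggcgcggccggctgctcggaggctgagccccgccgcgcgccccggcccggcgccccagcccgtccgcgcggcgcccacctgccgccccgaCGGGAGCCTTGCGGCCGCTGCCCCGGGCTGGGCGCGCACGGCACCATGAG
Wnt6: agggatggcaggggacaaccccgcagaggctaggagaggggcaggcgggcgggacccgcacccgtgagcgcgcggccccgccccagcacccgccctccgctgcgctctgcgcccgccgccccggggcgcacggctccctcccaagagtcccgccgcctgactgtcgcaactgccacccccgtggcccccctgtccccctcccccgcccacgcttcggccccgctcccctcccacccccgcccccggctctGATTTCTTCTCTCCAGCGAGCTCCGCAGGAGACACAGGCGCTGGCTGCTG
Wnt10b: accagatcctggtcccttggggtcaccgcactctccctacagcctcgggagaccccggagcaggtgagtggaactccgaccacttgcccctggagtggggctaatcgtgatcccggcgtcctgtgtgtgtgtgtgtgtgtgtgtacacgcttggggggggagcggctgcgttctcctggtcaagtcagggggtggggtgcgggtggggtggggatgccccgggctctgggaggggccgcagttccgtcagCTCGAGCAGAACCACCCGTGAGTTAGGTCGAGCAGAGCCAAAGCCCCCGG
G and C made up 84.3%, 76.7% and 66.3% of these windows, against a median of 52.7% over all 32851 windows of the table. Of the 10 windows of the 7 ligands, 0 held the C/EBP motif TTGCNNAA on either strand, which 10.8% of all windows held. The TCF/LEF motif CTTTGAT was in 1 window of *Wnt5b* and 1 of *Wnt11*, and in 3.73% of all windows. The steroid receptor half-site TGTTCT was in another window of *Wnt5b*, and in 19% of all windows. These 3 motifs were searched on both strands and do not overlap in the windows, and a match or its absence describes only these letters.

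In WT MECs, *Wnt5a* had the highest level per exon length, 12.9 ± 0.955 RPKM (CPM per kb of exon, scaled by the trimmed mean of M-values, TMM, SD, n = 2). *Wnt5b* (9.87 ± 0.202 RPKM), *Wnt10a* (8.20 ± 0.847 RPKM), *Wnt4* (6.47 ± 1.05 RPKM) and *Wnt7b* (5.64 ± 0.953 RPKM) followed, and the libraries of *Wnt4* and *Wnt7b* overlapped. *Wnt2*, *Wnt11*, *Wnt9a* and *Wnt6* had means of 0.859 to 1.16 RPKM, and *Wnt11*, *Wnt9a* and *Wnt6* overlapped along this order. *Wnt10b* was at 1 and 0 counts. In WT macrophages, *Wnt5a* (12.2 ± 10.1 RPKM, SD, n = 2), *Wnt4* (8.56 ± 0.818 RPKM) and *Wnt2* (6.49 ± 0.669 RPKM) had the highest levels per length. *Wnt5a* overlapped with *Wnt4* in this order, as it did with *Wnt2*, since its 2 libraries were at 5.06 and 19.4 RPKM. *Wnt5b* followed at 2.70 ± 0.850 RPKM, and the other 6 ligands had means of 0.159 to 1.42 RPKM, of which *Wnt9a* was the lowest.

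**Figure D1:**
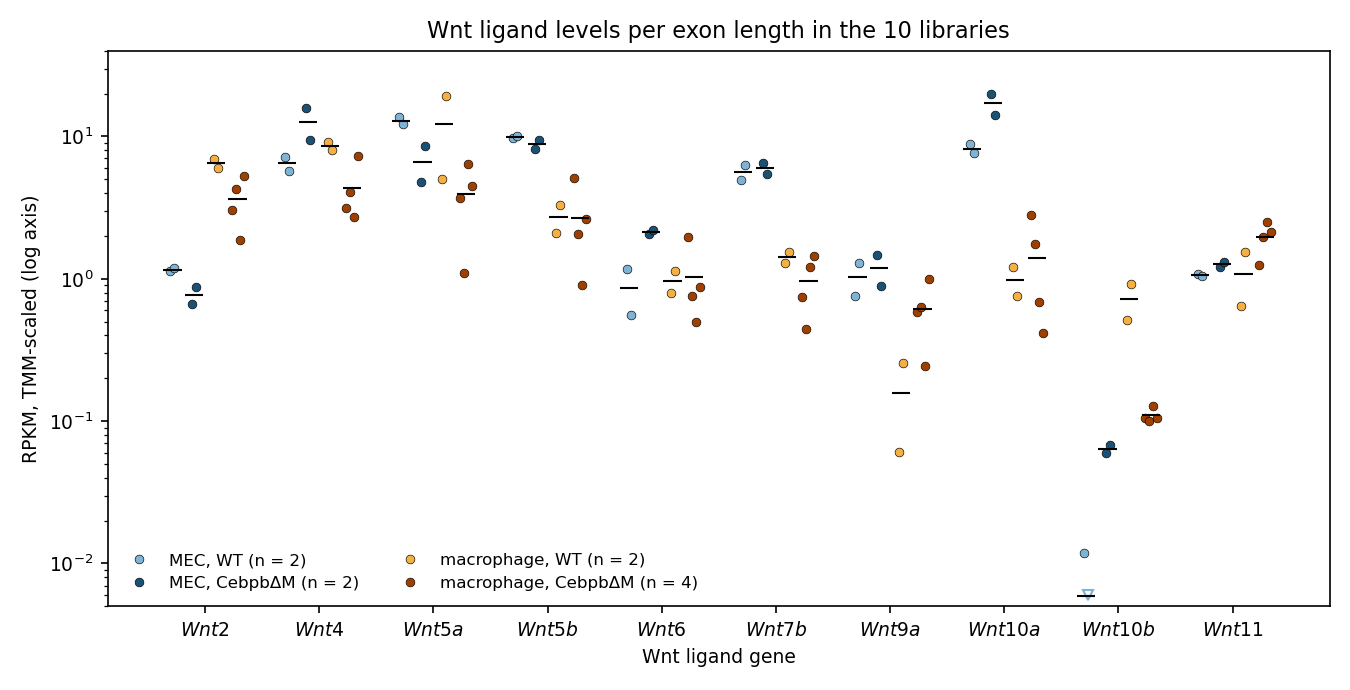
Level per exon length (RPKM, log axis) of the 10 Wnt ligand genes in each library, with points for libraries, black lines for group means and an open triangle for the 1 library at 0. *Wnt10a*, *Wnt7b* and *Wnt5b* are higher, and *Wnt2* and *Wnt10b* lower, in every MEC library than in every macrophage library. *Wnt5a* spans 1.10 to 19.4 RPKM among the macrophage libraries.

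In WT mice, *Wnt10a*, *Wnt7b*, *Wnt5b* and *Wnt9a* were lower and *Wnt2* and *Wnt10b* were higher in macrophages than in MECs, and *Wnt4*, *Wnt5a*, *Wnt6* and *Wnt11* did not pass the test. The comparison used edgeR's quasi-likelihood (QL) test over all 10 libraries with Benjamini–Hochberg (BH) adjustment over 18323 genes and a threshold of 0.05. The 6 of 10 ligands called stand beside 25.5% of all genes tested, and the median log2 fold change was -0.02 for the ligands and 0.06 for all genes. The libraries of the cell types did not overlap in 7 of 10 ligands and in 65.1% of all genes. The genes called were 2703 higher and 1961 lower in macrophages, and 3327 higher and 1347 lower with scaling by library totals only, which moved the median of all genes to 0.24. The 2 cell types were isolated by different methods, so cell type and isolation cannot be told apart, and in bulk libraries fewer cells of a type cannot be told apart from less RNA per cell.

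*Wnt10a*, a ligand of β-catenin signaling, was at 21.7 and 18.8 CPM in the WT MEC libraries 1 and 3 and at 3.01 and 1.86 CPM in the WT macrophage libraries 4 and 5. The 2 cell types were far apart, with a log2 fold change of -3.06 (QL adjusted *P* = 0.00918, SE 0.71). *Wnt7b* was at 24.3 and 30.9 CPM in WT MECs and at 6.32 and 7.57 CPM in WT macrophages. Its log2 fold change was -1.99 (QL adjusted *P* = 0.00828, SE 0.45), again without overlap. *Wnt5b*, which like *Wnt5a* is known for signaling without β-catenin, was at 25.8 and 26.6 CPM in WT MECs and at 5.57 and 8.76 CPM in WT macrophages. Its log2 fold change was -1.87 (QL adjusted *P* = 0.0390, SE 0.59). *Wnt9a* was low in both cell types, at 2.51 and 4.31 CPM in WT MECs and at 0.201 and 0.857 CPM in WT macrophages, where it had 4 and 18 counts (log2 fold change -2.67, QL adjusted *P* = 0.0311, SE 0.80). The calls of *Wnt5b* and *Wnt9a* were lost without MEC WT 1 (adjusted *P* = 0.111 and 0.0574), without MEC WT 3 (0.125 and 0.157) or without macrophage WT 4 (0.166 and 0.124). *Wnt5b* was also not called without macrophage WT 5 (0.0887) or with scaling by library totals only (0.0684), and its adjusted *P* was 0.0534 to 0.0584 without either MEC *Cebpb*ΔM library or without macrophage *Cebpb*ΔM 5 or 7. *Wnt7b* was not called without MEC WT 3 (adjusted *P* = 0.0566).

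*Wnt2*, a ligand known from stromal cells of the gland, was at 2.55 and 2.68 CPM in WT MECs and at 15.7 and 13.6 CPM in WT macrophages. The log2 fold change of *Wnt2* was 2.48 (QL adjusted *P* = 0.00268, SE 0.46), and it was called in each of the alternative fits. *Wnt10b*, a ligand of β-catenin signaling, had 35 and 66 counts in the WT macrophage libraries and 1 and 0 counts in the WT MEC libraries. The ratio of their rates was 122, with an exact 95% interval of 21.4 to 4850 that covers counting error only, and the QL test gave an adjusted *P* of 0.00156. Without macrophage WT 5 the adjusted *P* of *Wnt10a* was 0.0758 and *Wnt10b* was below the filter on low counts when either macrophage WT library was left out.

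The other 4 ligands were not called between the WT cell types. *Wnt4* was at 30.3 and 24.0 CPM in MECs and at 38.3 and 33.5 CPM in macrophages, without overlap, and the log2 fold change of 0.40 (95% interval -0.53 to 1.34, QL test adjusted *P* = 0.528) did not pass. *Wnt5a* was at 106 and 95.8 CPM in MECs and at 39.6 and 151 CPM in macrophages, so its macrophage libraries lay on both sides of MECs (log2 fold change -0.08, 95% interval -1.60 to 1.44). *Wnt6*, a ligand of β-catenin signaling, had 2.55 and 1.22 CPM in MECs and 1.76 and 2.48 CPM in macrophages (log2 fold change 0.17, 95% interval -1.28 to 1.61). *Wnt11*, a ligand of signaling without β-catenin, was at 4.31 to 4.49 CPM in MECs and 2.66 to 6.33 CPM in macrophages (log2 fold change 0.03, 95% interval -0.96 to 1.02). These intervals are wide, and a *P* above the threshold does not show that the levels were equal.

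The levels in macrophage libraries stood beside their content of epithelial transcripts. Relative to the mean of the 4 MEC libraries, *Wnt10a* was at 3.27 to 22.1% in the 6 macrophage libraries and *Wnt7b* at 7.70 to 26.6%, whereas the pan-epithelial markers were at 16.1 to 30.0%. *Wnt4* (28.4 to 95.9%), *Wnt5b* (9.63 to 54.9%) and *Wnt5a* (11.2 to 198%) covered wider ranges. *Wnt2* was at 194 to 721%, a range that overlapped that of the summed pericyte list (370 to 748%). This range lay above the summed fibroblast list (57.9 to 132%) and below the summed endothelial list (891 to 1915%). As means of the 6 macrophage libraries, single fibroblast markers ran from 34.99% (*Fbln1*) to 1104% (*Dpp4*), with *Dcn* at 88.6% and *Pi16* at 524%. Single pericyte markers ran from 188% (*Notch3*) to 4498% (*Rgs5*), so the place of *Wnt2* beside these lists depends on the markers. Within the libraries labelled *Cebpb*ΔM, replicate 4 had the highest levels of *Wnt5b* (13.6 CPM), *Wnt6* (4.33 CPM) and *Wnt10a* (6.88 CPM). It also had the highest sum of basal markers, 46.2% of the MEC level against 11.4 to 30.1% in replicates 5 to 7. Its sums of luminal progenitor (84.2% against 67.2 to 69.7%) and lymphocyte markers (153% against 105 to 142%) were the highest as well. Its sums of hormone-sensing luminal, macrophage, adipocyte, endothelial, pericyte and Schwann cell markers were the lowest of these libraries. The part of these other cell types in the ligand levels was not tested.

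**Figure D2:**
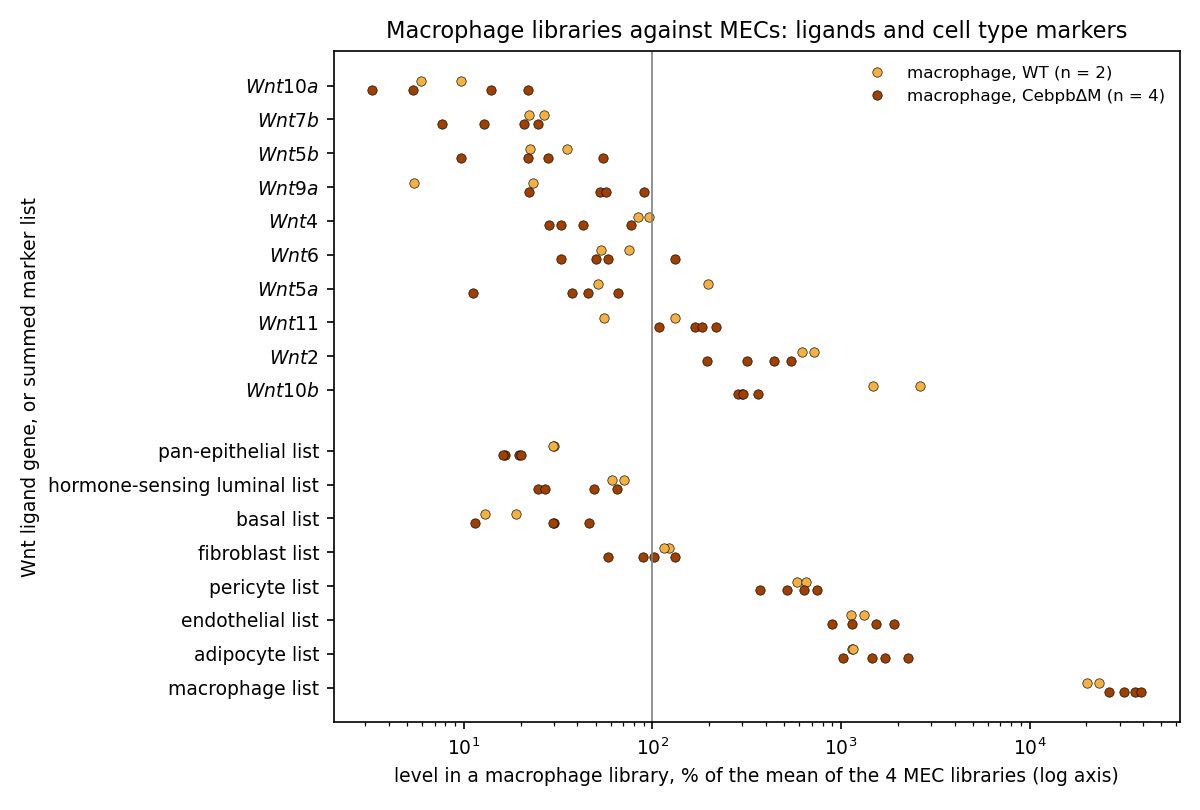
Level in each macrophage library as a percent of the mean of the 4 MEC libraries (log axis), for the 10 ligands and for summed cell type marker lists, with points for libraries and a line at 100%. *Wnt10a*, *Wnt7b* and the pan-epithelial list lie below 31% in every macrophage library, and *Wnt2* and *Wnt10b* lie at 194% or higher.

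In *Cebpb*ΔM mice, 5 of 10 ligands differed between the cell types, beside 33.7% of the 18323 genes tested, and the median log2 fold change of the ligands was -1.01 against 0.07 for all genes. The cell types did not overlap in 7 of 10 ligands and in 52.9% of all genes. *Wnt10a* was at 49.2 and 35.1 CPM in MECs and at 6.88, 4.33, 1.68 and 1.02 CPM in the macrophage libraries labelled *Cebpb*ΔM 4 to 7 (log2 fold change -3.59, QL adjusted *P* = 0.000525, SE 0.55). *Wnt7b* was at 31.9 and 26.7 CPM in MECs and at 3.67, 2.19, 5.92 and 7.09 CPM in macrophages (log2 fold change -2.64, QL adjusted *P* = 0.000273, SE 0.37). The groups were apart for both ligands, as they were in WT mice. *Wnt4* was at 66.1 and 39.5 CPM in MECs and at 13.1, 17.1, 11.3 and 30.8 CPM in macrophages, which gave a log2 fold change of -1.55 (QL adjusted *P* = 0.00638, SE 0.36). *Wnt5b* (log2 fold change -1.72, QL test adjusted *P* = 0.0171) was lower and *Wnt2* (log2 fold change 2.22, QL test adjusted *P* = 0.00232) higher in macrophages. *Wnt10b*, which was far apart between the cell types in WT mice, had 5 and 6 counts in MECs and 7, 7, 8 and 6 counts in macrophages (log2 fold change 0.76, 95% interval -0.93 to 2.45). *Wnt9a*, which was called in WT mice, was not called here and overlapped (log2 fold change -0.95, QL adjusted *P* = 0.260, 95% interval -2.30 to 0.40). *Wnt5a* (log2 fold change -0.76), *Wnt6* (-1.06) and *Wnt11* (0.64) were not called either. Without MEC *Cebpb*ΔM 1, *Wnt4* and *Wnt5b* were not called (adjusted *P* = 0.108 and 0.0704), which left 3 ligands. *Wnt5b* was also not called without MEC *Cebpb*ΔM 3 (adjusted *P* = 0.0881), and without macrophage *Cebpb*ΔM 4 *Wnt6* was called as well (log2 fold change -1.59, adjusted *P* = 0.0277).

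The RPKM of the 10 ligands summed to 48.4 and 46.0 in WT MECs, 60.7 and 52.4 in *Cebpb*ΔM MECs, 27.8 and 42.8 in WT macrophages and 22.4, 17.1, 17.2 and 25.7 in macrophages labelled *Cebpb*ΔM. *Wnt5a* made up 28.1 and 26.6% of the sum in WT MECs and 7.92 and 16.2% in *Cebpb*ΔM MECs, in which *Wnt10a* took the first place with 32.8 and 27.2%. In macrophages the leading ligand differed from library to library. It was *Wnt4* in WT 4 (32.9%) and *Cebpb*ΔM 7 (28.6%), *Wnt5a* in WT 5 (45.2%) and *Cebpb*ΔM 6 (37.5%), *Wnt5b* in *Cebpb*ΔM 4 (22.9%) and *Wnt2* in *Cebpb*ΔM 5 (24.9%). The ratio of *Wnt4* to *Wnt5a* per length was 0.531 and 0.468 in WT MECs and 3.28 and 1.11 in *Cebpb*ΔM MECs, without overlap, and it ranged from 0.412 to 3.72 in the macrophage libraries, where the genotypes overlapped.

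**Figure D3:**
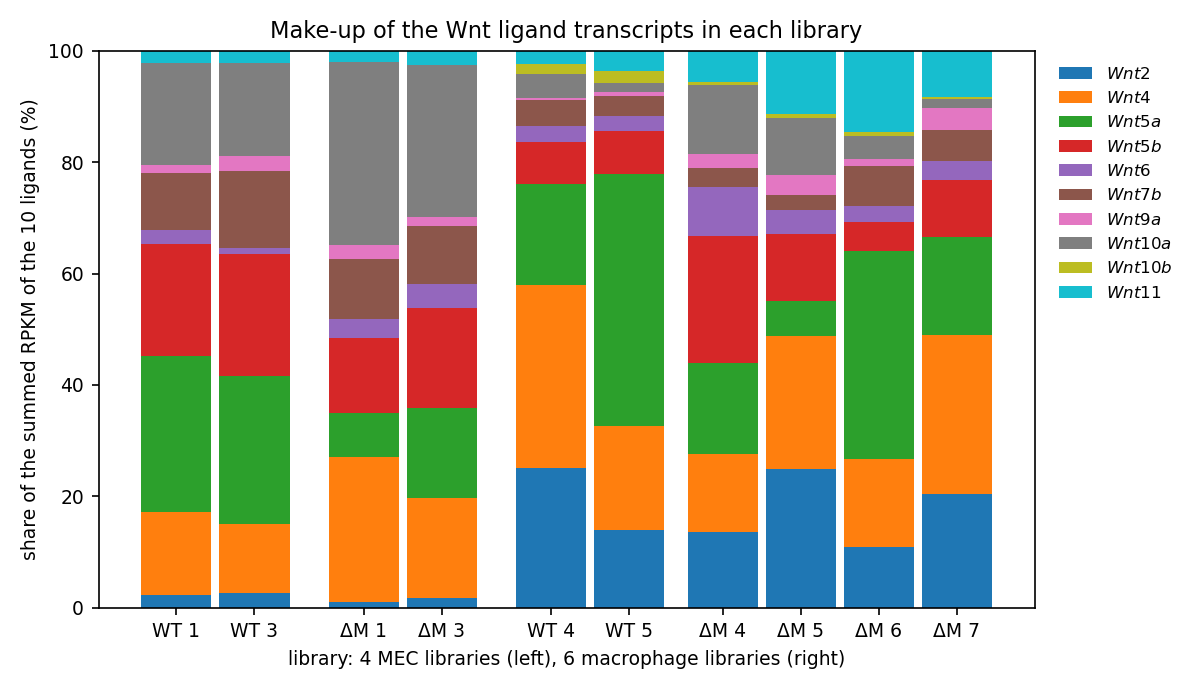
Share of each ligand in the summed RPKM of the 10 ligands (%), 1 bar for each library. In MECs *Wnt5a* leads in both WT libraries and *Wnt10a* in both *Cebpb*ΔM libraries, and in macrophages the leading ligand changes between libraries of 1 genotype.

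Between the genotypes in MECs, *Wnt10a*, *Wnt4* and *Wnt6* were higher and *Wnt5a* was lower in both *Cebpb*ΔM libraries than in both WT libraries, but none of these differences passed the threshold after adjustment. Of the 9 ligands tested, 0 had an adjusted *P* of 0.05 or less, as had 0.051% of the 15698 genes tested, and 4 had an unadjusted *P* under 0.05, as had 5.42% of all genes. The groups did not overlap in 7 of the 9 ligands and in 28.2% of all genes. The median log2 fold change was 0.22 for the ligands and -0.01 for all genes.

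*Wnt10a* was at 21.7 and 18.8 CPM in WT and 49.2 and 35.1 CPM in *Cebpb*ΔM MECs, a 2.11-fold difference (log2 fold change 1.07, QL unadjusted *P* = 0.00110, adjusted *P* = 0.169, SE 0.24). Its neighbor *Wnt6* was at 2.55 and 1.22 CPM in WT and 4.55 and 4.86 CPM in *Cebpb*ΔM MECs, a 2.54-fold difference (log2 fold change 1.34, SE 0.42, adjusted *P* = 0.431). *Wnt4* was at 30.3 and 24.0 CPM in WT and 66.1 and 39.5 CPM in *Cebpb*ΔM MECs, a 1.97-fold difference (log2 fold change 0.98, SE 0.27, adjusted *P* = 0.291). For these 3 ligands each *Cebpb*ΔM library was above each WT library, and *Cebpb*ΔM 1 was the higher of the pair for *Wnt10a* and *Wnt4*. *Wnt5a* was at 106 and 95.8 CPM in WT and 37.6 and 66.5 CPM in *Cebpb*ΔM MECs (log2 fold change -0.93, SE 0.27, adjusted *P* = 0.361). Without MEC *Cebpb*ΔM 3, which leaves 1 *Cebpb*ΔM library assumed to vary like the WT pair, *Wnt10a*, *Wnt4* and *Wnt5a* were called (adjusted *P* = 0.00927, 0.00783 and 0.00437), and edgeR's likelihood ratio test (LRT) and DESeq2 each called *Wnt10a* alone (adjusted *P* = 0.0164 and 0.0153). The summed hormone-sensing luminal markers, the cells known to make *Wnt4*, were 2412 and 3201 CPM in WT and 2409 and 2959 CPM in *Cebpb*ΔM MECs, so these groups overlapped. *Prlr* made up most of this sum, with means of 2066 CPM in WT and 2019 CPM in *Cebpb*ΔM MECs, and other members went both ways, as *Prom1* had means of 274 and 104 CPM and *Cited1* of 277 and 362 CPM.

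The other ligands tested in MECs had smaller fold changes. *Wnt2* was at 2.55 and 2.68 CPM in WT and 1.50 and 1.98 CPM in *Cebpb*ΔM MECs (log2 fold change -0.56, 95% interval -1.47 to 0.35). *Wnt5b*, *Wnt7b*, *Wnt9a* and *Wnt11* had log2 fold changes of -0.14 to 0.27. The genotypes overlapped for *Wnt7b* and *Wnt9a* but not for *Wnt2*, *Wnt5b* and *Wnt11*. *Wnt10b* was below the filter of more than 1 CPM in at least 2 libraries, with 1 and 0 counts in WT and 5 and 6 counts in *Cebpb*ΔM MECs, a ratio of 10.8 with an exact 95% counting interval of 1.57 to 464.

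In macrophages, 0 of the 10 ligands had an adjusted *P* of 0.05 or less, as had 0.0% of the 17772 genes tested, and 3 had an unadjusted *P* under 0.05, as had 8.63% of all genes. The groups did not overlap in *Wnt2*, *Wnt4* and *Wnt10b*, 3 of 10 ligands, and in 18.5% of all genes. *Wnt10b* was at 1.76 and 3.14 CPM in WT and at 0.357, 0.341, 0.434 and 0.360 CPM in the libraries labelled *Cebpb*ΔM, a 6.59-fold difference on 35 and 66 against 6 to 8 counts. Its log2 fold change was -2.72 (QL unadjusted *P* = 0.00281, adjusted *P* = 0.452, SE 0.65), and the LRT called it (adjusted *P* = 0.0190) whereas DESeq2 did not (adjusted *P* = 0.0618). *Wnt4* was at 38.3 and 33.5 CPM in WT and at 13.1, 17.1, 11.3 and 30.8 CPM in those labelled *Cebpb*ΔM, each below both WT libraries (log2 fold change -1.01, QL adjusted *P* = 0.536, SE 0.38).

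*Wnt2* was at 15.7 and 13.6 CPM in WT macrophages and at 6.88, 9.64, 4.23 and 11.8 CPM in those labelled *Cebpb*ΔM (log2 fold change -0.87, 95% interval -1.77 to 0.03). *Wnt5a* had a larger log2 fold change, -1.67 (QL adjusted *P* = 0.537, SE 0.64), but it rested on WT 5, which was at 151 CPM. The other libraries were at 39.6 CPM in WT 4 and at 28.7, 8.57, 50.4 and 35.1 CPM in *Cebpb*ΔM 4 to 7, and without WT 5 the log2 fold change was -0.39. *Wnt9a* had 4 and 18 counts in WT and 38, 43, 15 and 55 counts in those labelled *Cebpb*ΔM, with overlap (log2 fold change 1.90, 95% interval -0.14 to 3.95). *Wnt11* was at 2.66 and 6.33 CPM in WT and 5.20 to 10.4 CPM in those labelled *Cebpb*ΔM (log2 fold change 0.83, 95% interval -0.20 to 1.86). *Wnt5b*, *Wnt6*, *Wnt7b* and *Wnt10a* had log2 fold changes of -0.59 to 0.49 with overlapping libraries.

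The macrophage libraries also differed in their marker content. The pan-epithelial markers summed to 30.0 and 29.7% of the MEC level in WT 4 and 5 and to 19.7, 16.5, 16.1 and 20.2% in *Cebpb*ΔM 4 to 7, the hormone-sensing luminal markers to 61.3 and 70.4% and to 24.7, 27.0, 48.8 and 65.2%, and the macrophage markers were higher in each library labelled *Cebpb*ΔM (11016 to 16320 CPM) than in both WT libraries (8425 and 9730 CPM). The luminal progenitor markers were at 50.2 and 60.9% in WT and 67.2 to 84.2% in those labelled *Cebpb*ΔM. *Cd14* made up most of this sum, with means of 560 CPM in WT and 779 CPM in those labelled *Cebpb*ΔM. Other members were close or lower, as *Kit* (116 and 116 CPM) and *Aldh1a3* (38.9 and 35.8 CPM), or higher, as *Elf5* (34.1 and 52.5 CPM) and *Csn3* (96.2 and 111 CPM). The basal markers were at 18.9 and 12.9% in WT and at 46.2, 30.1, 29.7 and 11.4% in *Cebpb*ΔM 4 to 7, with overlap. Within the pan-epithelial list *Krt8* had means of 2996 CPM in WT and 1648 CPM in those labelled *Cebpb*ΔM, whereas *Epcam* (440 and 415 CPM) and *Elf3* (108 and 106 CPM) were close. The part of this content in the ligand differences was not tested beyond the fit that follows. With the mean pan-epithelial level as a covariate, the log2 fold change of *Wnt4* was -0.77 (SE 0.81), of *Wnt2* -0.49 (SE 0.80), of *Wnt10b* -3.21 (SE 1.30) and of *Wnt5a* -2.48 (SE 1.07). *Wnt11* turned to -0.39 and *Wnt5b* to 1.32, and *Wnt10a* was at 1.99, *Wnt6* at 1.30 and *Wnt7b* at -0.92 in this fit, in which 0 ligands were called and the genotype and the covariate moved together.

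**Figure D4:**
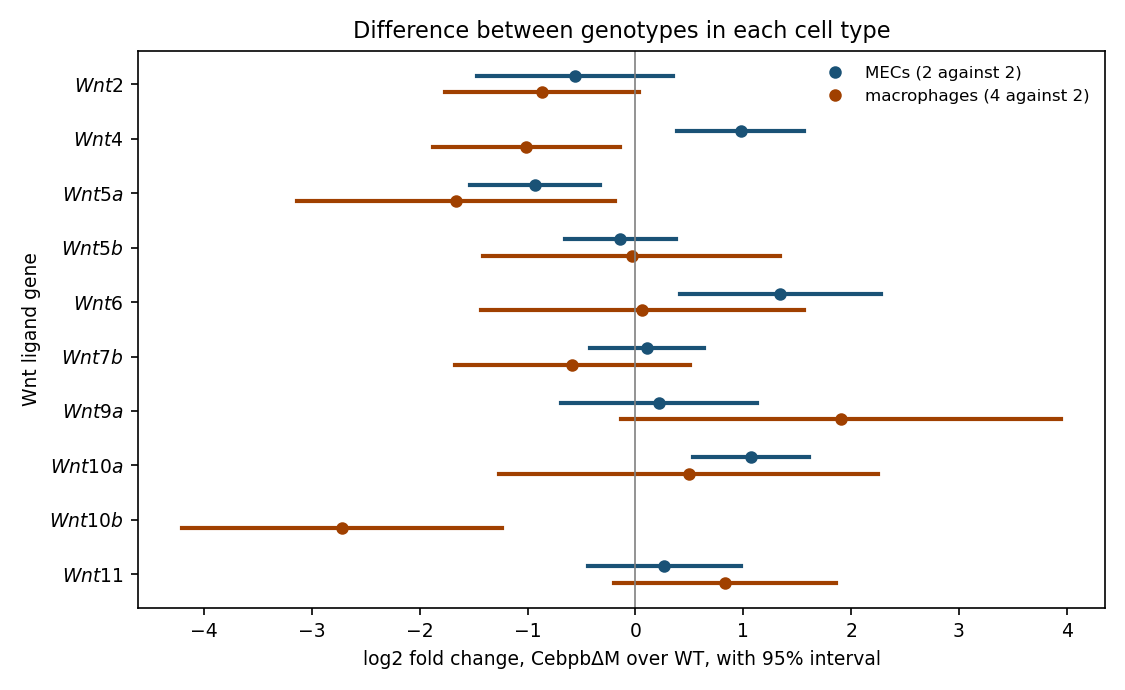
Log2 fold change of each ligand between *Cebpb*ΔM and WT with its 95% interval, in MECs (2 against 2 libraries) and in macrophages (4 against 2). *Wnt4* lies above 0 in MECs (0.98) and below 0 in macrophages (-1.01), and *Wnt10b* was not tested in MECs.

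An interaction term in the fit of the 10 libraries compared the genotype difference of macrophages with that of MECs. It called 0 of 10 ligands and 0.0% of the 18323 genes. Unadjusted, 2 ligands had a *P* under 0.05, *Wnt4* and *Wnt10b*, as had 5.19% of all genes. For *Wnt4* all 4 macrophage libraries labelled *Cebpb*ΔM were below both WT libraries and both *Cebpb*ΔM MEC libraries were above both WT libraries. The interaction of *Wnt4* was -1.95 on the log2 scale (QL unadjusted *P* = 0.00522, adjusted *P* = 0.833, SE 0.56), with 95% interval bounds of -3.19 and -0.72. *Wnt10b* had an interaction of -5.80 (QL unadjusted *P* = 0.00108, adjusted *P* = 0.730, SE 1.32), a fitted value that depends on the 1 and 0 counts of WT MECs. The LRT called *Wnt10b* (adjusted *P* = 0.0123) and DESeq2 did not (adjusted *P* = 0.226). *Wnt5a*, which was lower in *Cebpb*ΔM in both fits, had an interaction of -0.68 (95% interval -2.70 to 1.33).

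Transcripts of the secretion genes *Porcn* and *Wls* were counted in both cell types. *Porcn* was at 31.5 ± 10.4 CPM in WT and 50.7 ± 21.2 CPM in *Cebpb*ΔM MECs (SD, n = 2), and *Wls* at 219 ± 33.4 and 192 ± 0.488 CPM. In macrophages *Porcn* was at 37.5 ± 37.6 CPM in WT (SD, n = 2), an SD as large as the mean, and 21.0 ± 5.37 CPM in those labelled *Cebpb*ΔM (SD, n = 4), and *Wls* at 171 ± 16.3 and 184 ± 7.57 CPM. Of the 9 secretion genes, 0 were called between genotypes, beside 0.051% of all genes in MECs and 0.0% in macrophages, and 0 between cell types, beside 25.5% in WT and 33.7% in *Cebpb*ΔM mice. In the MEC genotype comparison *Tmed2*, a cargo receptor of the early secretory pathway (log2 fold change 0.78), and *Porcn* (0.70) had the smallest *P* of the list, with adjusted *P* of 0.484 and 0.889. The median log2 fold change of the list was -0.03 in MECs and 0.08 in macrophages, against -0.01 and 0.00 for all genes.

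Of the receptors that bind these ligands, 14 of 16 were tested in each genotype comparison and 0 were called, beside the same 0.051% and 0.0% of all genes, so that a count of 0 is no more than the share over all genes. *Ror1*, a receptor of *Wnt5a* (log2 fold change 1.08, QL test adjusted *P* = 0.273), and *Fzd3* (0.60, adjusted *P* = 0.814) had the smallest *P* in MECs, and *Fzd1* (-0.81) and *Lrp6* (-0.39) in macrophages. Between the cell types, 2 of 15 receptors were called in WT and 3 of 15 in *Cebpb*ΔM mice, beside 25.5% and 33.7% of all genes. *Fzd4* was higher in macrophages in WT (log2 fold change 2.85, QL test adjusted *P* = 0.000290) and in *Cebpb*ΔM mice (2.90, adjusted *P* = 0.000107). *Fzd10* was lower in WT macrophages (-2.38, adjusted *P* = 0.0458), and *Ryk* (-0.87) and *Ptk7* (-1.19) were lower in macrophages of *Cebpb*ΔM mice. A further list of 9 genes held the R-spondin and Lgr genes, which amplify Wnt signals, and also *Znrf3* and *Rnf43*. Of these 9 genes, 6 were tested and 0 were called between genotypes (0.051% and 0.0% of all genes). *Lgr6* (0.79) and *Rspo1* (1.002) had the smallest *P* in MECs. Between the cell types 2 of 6 were called in WT and 1 of 6 in *Cebpb*ΔM mice. *Lgr5* was lower in macrophages of both genotypes (log2 fold change -1.93 in WT and -2.35 in *Cebpb*ΔM mice), and *Lgr4* in WT (-1.04).

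Antagonists, signal transducers and targets were likewise without a genotype call, as were nearly all genes (0.051% called in MECs and 0.0% in macrophages). In MECs 11 of 17 antagonists, 16 of 17 transduction genes and 6 of 8 targets were tested, with median log2 fold changes of 0.10, -0.02 and 0.17. The feedback inhibitor *Nkd1* was the target with the smallest *P* in MECs, at 7.52 ± 2.47 CPM in WT and 28.6 ± 12.7 CPM in *Cebpb*ΔM (SD, n = 2, log2 fold change 1.94, QL test adjusted *P* = 0.0878). *Axin2*, a target used as a readout of β-catenin, was at 0.689 ± 0.227 CPM in WT and 0.599 ± 0.188 CPM in *Cebpb*ΔM MECs (SD, n = 2). At these levels *Axin2* was below the filter on low counts and was not tested in MECs. Between the cell types the antagonist *Dkk3* was lower in macrophages (-2.74 in WT and -1.86 in *Cebpb*ΔM mice) and *Sfrp4* higher (2.28 and 2.69). *Myc* and *Csnk1a1* were lower and *Tcf7l1* was higher in macrophages of *Cebpb*ΔM mice, and 0 of 7 targets and 0 of 16 transduction genes were called between the cell types in WT mice, beside 25.5% of all genes.

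For each ligand the 3 most alike genes were those with the smallest root mean square difference of centered log2 CPM over the 10 libraries, among 18322 genes, given as a description. *Wnt7b* had the closest partner, *AA986860* (0.13), followed by *Sgms2* and *Fam84a*. *Wnt5b* was most like *Fam83b* (0.23), *5430416N02Rik* and *Pdpn*, and *Wnt10a* most like *Fst* (0.42), *Cxcl14* and *Speer4e*. *Wnt4* was nearest to *Zfp664* (0.28), *Fam210b* and *Setd6*, and *Wnt5a* to *Flvcr2* (0.48), *Padi2* and *Cxcl15*. *Wnt2* was nearest to *Neb* (0.36), *Sec16b* and *Thy1*, the last a surface marker of fibroblasts and T cells. *Wnt6* was nearest to *Mbd3* (0.38), *Rnf10* and *Nop9*, *Wnt9a* to *Gm7407* (0.42), *Zfp938* and *Tent5b*, and *Wnt11* to *Arhgef3* (0.23), *Ccdc134* and *Sec22c*. *Wnt10b*, with few counts, had no gene closer than 0.66 (*Tacr1*, then *Phf19* and *Pcdh20*). A ligand that varies little is near many genes, as 70.0% of all genes lay within 1 log2 unit of *Wnt11* and 1.70% within that of *Wnt10a*, so these distances are not comparable between ligands.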

How the data were processed

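RNA sequencing libraries of the 4 MEC and 6 macrophage samples were grouped by GEO's labels. The authors trimmed reads with Trimmomatic, aligned them to GRCm38 with HISAT2 and counted fragments per gene with featureCounts (version 1.6.2, Ensembl 100, minimum mapping quality 10), and deposited raw counts in 1 table for each cell type. Of 55487 genes, 55141 matched a GENCODE symbol.

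After removal of 8951 genes shorter than 300 nt, those exceeding 1 CPM in 2 or more libraries were tested with edgeR 4.0.16 (R 4.3.3): TMM scaling, quasi-likelihood test, BH adjustment, threshold 0.05. Levels were CPM and RPKM with TMM factors over the 10 libraries, and 3 counts correspond to 0.111 to 0.177 CPM. Fits were tested on simulated data. Counting intervals were exact and cover counting error only. Alternatives were the LRT, DESeq2 1.42.0, other scalings, no filter, a replicate block, 1 fit for all libraries, a pan-epithelial covariate and each library left out. No 2 libraries of a group were duplicates. All 10 members were named, other pathway genes were those with the 2 smallest *P* of a list or called between cell types, and *Wls* and *Axin2* were added after their values were seen. The members and lists were chosen with earlier results of these data known.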

Additional observations from a re-analysis of the deposited data

How the results depend on the processing

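The number of ligands called between genotypes was 0 in MECs and became 1 with the LRT, 1 with DESeq2, 3 with a replicate block and 0 to 3 when a library was left out. In macrophages it became 1 with the LRT and was 0 in each fit without 1 library, and for the interaction it became 1 with the LRT. Same-numbered libraries deviated together with r = 0.106 in MECs and with 0.129 and -0.0865 in macrophages 4 and 5. In a group of 2 libraries the deviations mirror each other, so these values cannot decide whether the replicate numbers pair samples. The numbers were not taken to pair samples. The block in the QL test changed the calls of *Wnt4*, *Wnt5a* and *Wnt10a* in MECs (adjusted *P* = 0.0266, 0.0194 and 0.0141). Between cell types, 3 to 6 ligands were called in WT and 3 to 6 in *Cebpb*ΔM mice when a library was left out. The summed RPKM of the ligands in WT MECs was 44.3 with library totals only, against 47.2. All genes called between MEC genotypes numbered 8 with the QL test, 179 with the LRT, 161 with DESeq2, 205 with the block, 38 with no filter, 0 with library totals only and 2 to 337 without 1 library, and between macrophage genotypes 0, 138 (LRT), 201 (DESeq2) and 12 (block). For the interaction they numbered 0, 53 (LRT) and 27 (DESeq2), and without 1 library 2456 to 4846 between cell types in WT and 3496 to 6556 in *Cebpb*ΔM mice.

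Ligands that were not called changed sign as follows. In macrophages *Wnt5b* was at 0.28 with the replicate block, 0.40 with replicates 4 and 5 only, 1.32 with the covariate and -0.56 to 0.33 without 1 library, and *Wnt11* at -0.39 with the covariate. *Wnt7b* kept its sign there, at -1.30 with the block. Without 1 library, *Wnt6* ranged from -0.47 to 0.33 and *Wnt10a* from -0.072 to 0.88 in macrophages, and *Wnt9a* from -0.16 to 0.69 and *Wnt7b* from -0.069 to 0.31 in MECs. The interaction of *Wnt10a* was 0.16 with the replicate block, that of *Wnt5b* -0.41 to 0.48 and that of *Wnt5a* -1.38 to 0.55 without 1 library. Between WT cell types *Wnt11* was at -0.0059 with DESeq2, -0.0061 with RLE scaling and -0.68 to 0.57 without 1 library, *Wnt6* at -0.27 to 0.79, and *Wnt5a* at 0.082 with library totals only and -1.31 to 0.63 without 1 library. The causes were not tested.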

Other observations

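The other 9 Wnt ligand genes had few counts. *Wnt2b*, a relative of *Wnt2*, had 27 and 24 counts in WT MECs, 24 and 33 in *Cebpb*ΔM MECs, 3 and 8 in WT macrophages and 48, 54, 40 and 13 in the macrophage libraries labelled *Cebpb*ΔM 4 to 7. Each of these 4 libraries was above both WT libraries, with a log2 fold change of 2.86 that did not pass the threshold (edgeR QL test adjusted *P* = 0.502). *Wnt9b* varied within groups, with 8 and 56 counts in WT macrophages and 0, 29, 13 and 4 counts in those labelled *Cebpb*ΔM. *Wnt3a*, which lies next to *Wnt9a*, had 0 counts in all 10 libraries, below the limit of 3 counts, or 0.111 to 0.177 CPM, that a count of 0 allows. *Wnt1*, *Wnt3*, *Wnt7a*, *Wnt8a*, *Wnt8b* and *Wnt16* had at most 17 counts in any library.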
